A study of Bubalus bubalis with 8 samples.

Results

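The IGF binding proteins are the secreted carriers of the insulin-like growth factors, and 6 of their genes, IGFBP2, IGFBP3, IGFBP4, IGFBP5, IGFBP6 and IGFBP7, were followed in riverine buffalo mammary epithelial cells (MECs) after heat stress. The members were every probe of the bovine array that carries 1 of these 6 gene names, out of 24839 gene names in all. They had 15 probes, of which 3 lay in a patch of the slide that was dark on the control array and were left out, so that 12 of the 43653 probes of the array were described.

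The MECs were a primary culture from the mammary tissue of a healthy adult buffalo, used at the 10th passage on collagen treated plates. The unstressed cells (CTR) stayed at 37 °C, whereas the treated plate was held at 42 °C for 1 h and returned to 37 °C with 5% CO2. Treated cells were harvested at 7 time points of recovery, from 30 min to 24 h. Each of these 8 groups had 1 array and the 7 comparisons with CTR share the same CTR array, so no test could be made and every change below is a difference between single arrays. The header of each array file names its slide: CTR, 8 h, 12 h and 24 h were hybridised on slide 1, and 30 min, 2 h, 4 h and 16 h on slide 2. A comparison of a slide 2 time point with CTR also compares the slides, whose effect and that of heat cannot be told apart, so the early time points were compared with 16 h, on the same slide, as well.

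IGF1 and IGF2 signal through the receptor IGF1R, and the binding proteins hold them in the extracellular fluid, where they may either keep the ligand from the receptor or deliver it after proteolysis. In the mammary gland, IGFBP5 is known for its high output by the epithelium during involution, when milk secretion stops and alveolar cells die. IGFBP2, IGFBP3, IGFBP4 and IGFBP6 are also made by mammary epithelial or stromal cells, and IGFBP7, which binds IGFs weakly, is a matrix-associated member of stroma and vessels.

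The level of a probe is given on the log2 scale, as its processed Cy3 intensity above the 75th percentile of the same array. Levels of different probes cannot be set against each other, since each probe hybridises with its own efficiency. The error of a change combined the spread between repeated spots of bright probes on the 2 arrays and was 0.29 to 0.45 on the log2 scale, a spread inside arrays that leaves out the one between cultures. Between 20.8% and 40.2% of the probes were well above background on an array. The 30 min levels rest on the deposited log2 table, because the scanner intensities of that array departed from it. Pearson's r between both sources, over the changes of bright probes from CTR, was 0.769 at 30 min and at least 0.99996 at the other time points.

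The labelled cell type was checked with marker lists on these arrays. The luminal keratins KRT8 and KRT19 and the basal keratins KRT5, KRT14 and KRT17 were well above background on slide 1, as was vimentin (VIM), a mesenchymal filament that cultured epithelial cells also make. KRT23 of the luminal list and TP63 and OXTR of the basal list were not well above background on any array. In CTR, 10 of 20 luminal and 6 of 15 basal probes were well above background. Slide 2 arrays also carried RNA of genes that were mostly at background on slide 1. The summed level of the 5 milk protein genes was 70.6 to 1397 times the 75th percentile signal on slide 2, and 4.73 to 6.01 on slide 1. The 6 leukocyte genes summed to 199 at 30 min and 159 at 2 h, and to 35.7 to 55.5 on the other 6 arrays. Collagen and decorin probes led the 12 fibroblast genes at 16 h, when 26 of 52 fibroblast probes were well above background, against 5 to 16 elsewhere. The summed level of the fibroblast genes was not highest there, at 153 against 187 in CTR and 172 at 24 h. The inducible heat shock gene HSPA1A was highest on the array labelled 8 h, where probe A_73_P359866 stood 4.56 above CTR, beside 3.42 on the 30 min array, 2.84, 1.81 and 0.70 on the other slide 2 arrays (2, 4 and 16 h), and 2.95 and -1.42 on the 12 and 24 h arrays. In bulk RNA, fewer cells of a type and less RNA per cell cannot be told apart.

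**Figure D1:**
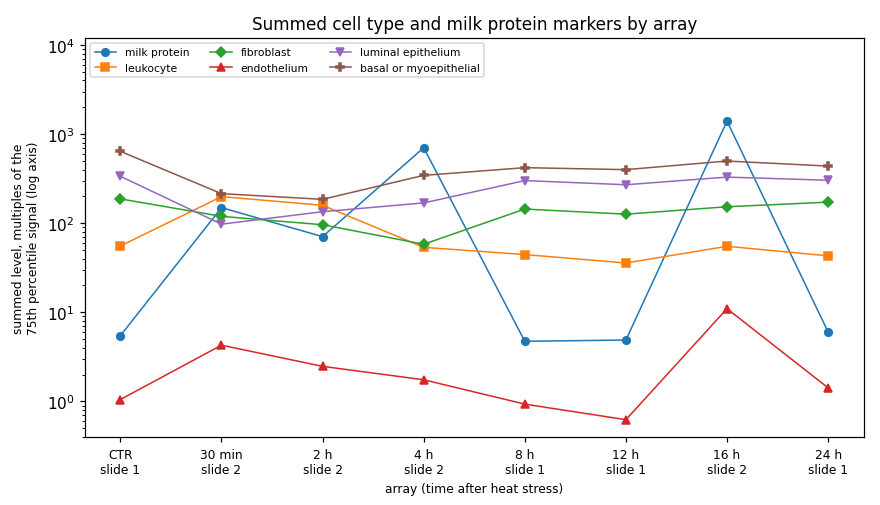
Summed level of 6 marker lists on each array, as multiples of the 75th percentile signal of that array on a log axis. Milk protein genes stood between 70.6 and 1397 on the 4 slide 2 arrays and between 4.73 and 6.01 on the 4 slide 1 arrays, and leukocyte genes were highest at 30 min (199) and 2 h (159).

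Sequences are shown for IGFBP2 and IGFBP5 because of their low values at 2 h. IGFBP5 A_73_P034721 and IGFBP2 A_73_103681 were more than 3-fold lower than at 16 h under each of the 5 alternative settings run for that comparison. A floor at the highest detection limit of any array (0.24) was not among these settings. IGFBP5 was not detected at 2 h, and its 16 h level of 1.10 is less than 3-fold above that floor. In the NDDB_SH_1 buffalo annotation of RefSeq both genes are direct neighbours, IGFBP2 between RPL37A and IGFBP5, and IGFBP5 between IGFBP2 and TNP1. The array annotation, on the bovine build Btau_3.1, puts the IGFBP2 probes on the plus strand of chromosome 2 at 108835541 to 108835600 (A_73_P468953) and 108839213 to 108839272 (A_73_103681). It puts the IGFBP5 probes on the minus strand at 108851314 to 108851373 (A_73_P034721) and 108854488 to 108854547 (A_73_P108261), with 12041 bases between the nearest ends of the 2 genes' probes. All 4 probes are 60 bases long, with a GC content of 60% for IGFBP2 and 55% for IGFBP5. They are printed as the array files give them, 5′ to 3′, and the capitals mark the letters TGA at the end of A_73_P034721, a stop codon.
IGFBP2 A_73_P468953: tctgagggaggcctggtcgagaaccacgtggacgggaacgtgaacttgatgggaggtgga
IGFBP2 A_73_103681: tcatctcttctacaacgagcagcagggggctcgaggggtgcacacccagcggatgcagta
IGFBP5 A_73_P108261: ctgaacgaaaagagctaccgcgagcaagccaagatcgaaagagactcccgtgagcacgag
IGFBP5 A_73_P034721: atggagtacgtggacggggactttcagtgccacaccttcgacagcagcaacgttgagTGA

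IGFBP2, IGFBP6 and IGFBP7 were lowest on the 2 h or the 30 min array, which differed by more than 2 errors only for IGFBP2 A_73_103681. IGFBP5 was not well above background on either of these arrays, so its lowest array is not known. On the slide 1 arrays of 8 h to 24 h the measured probes of IGFBP2, IGFBP7 and IGFBP5 A_73_P034721 were within 2-fold of CTR, whereas IGFBP5 A_73_P108261 was further below and IGFBP6 was saturated. IGFBP3 and IGFBP4 had the opposite arrangement, with all slide 2 arrays above all slide 1 arrays.

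**Figure D2:**
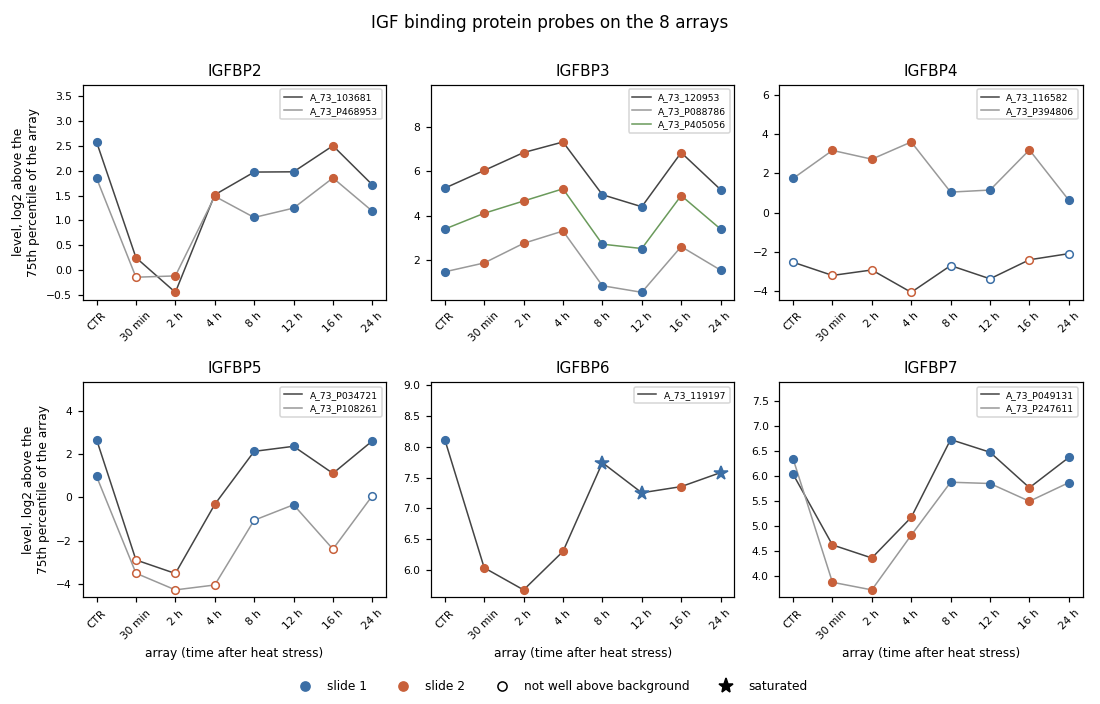
Level of the 12 IGF binding protein probes on the 8 arrays, 1 panel per gene, on the log2 scale above the 75th percentile of each array. Blue points are slide 1 and orange points slide 2, open points were not well above background and stars were saturated. IGFBP2, IGFBP5, IGFBP6 and IGFBP7 dip at 30 min and 2 h, while the orange points of IGFBP3 and of IGFBP4 A_73_P394806 lie above the blue ones.

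IGFBP5 had the widest range of the members over the 8 arrays. Probe A_73_P034721 had a level of 2.66 in CTR and of 2.12, 2.35 and 2.60 on the 8, 12 and 24 h arrays, against -0.33 and 1.10 on the slide 2 arrays of 4 and 16 h. Its spots on the 30 min and 2 h arrays (-2.89 and -3.51) were not well above background. The slide 1 arrays were therefore all above the slide 2 arrays, and on slide 2 the level was higher at 16 h than at 4 h. Against CTR the probe was 7.95-fold lower at 4 h (-2.99 ± 0.32 on the log2 scale) and 2.95-fold lower at 16 h (-1.56 ± 0.45). For an array that did not detect a probe only a limit can be given, the lowest level called well above background there, and this made IGFBP5 at least 29.9-fold lower at 2 h and at least 5.37-fold lower at 30 min. With the highest such limit of any array used as a floor for all, the change at 2 h and 4 h became -2.42, still past 3-fold. On the 8, 12 and 24 h arrays it was 1.46-fold, 1.24-fold and 1.04-fold lower (errors of 0.29 to 0.34 on the log2 scale), and the last 2 of these differences are about as large as the error or smaller.

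The second IGFBP5 probe was weaker. A_73_P108261 was well above background only in CTR, at 0.96, and at 12 h, at -0.34, a difference of -1.31 ± 0.31. Elsewhere it gave limits, at least 9.21-fold lower than CTR at 2 h and at least 6.69-fold lower at 4 h, and smaller limits of 1.65-fold to 2.69-fold on the other 4 arrays. With the common floor its change was -0.73 in each of these comparisons, under 3-fold. Its slide 1 value at 12 h thus stood further below CTR than that of A_73_P034721, by -1.31 against -0.31, and the 2 probes do not give the same answer there.

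IGFBP2, which carries IGF2 and can also bind integrins, had its low values on the 30 min and 2 h arrays, past 3-fold, and not later. Probe A_73_103681 had levels of 2.58 in CTR and 1.97, 1.98 and 1.72 on the other slide 1 arrays (8, 12 and 24 h), and of 0.25, -0.45, 1.52 and 2.50 on slide 2 (30 min, then 2, 4 and 16 h). The lowest values were thus those of 30 min and 2 h, and 16 h, on the same slide, was next to CTR at the upper end. The change from CTR was 8.20-fold lower at 2 h (-3.04 ± 0.31) and 5.05-fold lower at 30 min (-2.34 ± 0.30). At 4 h it was 2.09-fold lower, a difference that vanished (0.02) when the arrays were scaled to their median in place of the 75th percentile. Of the 7 steps between neighbours in the order of its levels, 2 were larger than 2 errors, that from 2 h to 30 min and that from 30 min to 4 h.

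The other IGFBP2 probe behaved similarly. A_73_P468953 had levels of 1.85 in CTR and 1.06, 1.25 and 1.18 on the other slide 1 arrays, and of -0.12, 1.48 and 1.85 on the slide 2 arrays of 2, 4 and 16 h. On the 30 min array it was below the detection limit (-0.15). It was 3.93-fold lower than CTR at 2 h and at least 3.06-fold lower at 30 min. The 2 h change was under 3-fold with normexp (-1.22) and with median scaling (-1.27). The 2 probes correlated with r = 0.96 over the 8 arrays, and their changes differed by at most 1.06. With the scanner intensities of the 30 min array in place of the deposited values, the 30 min changes turned to 0.53 for A_73_103681 and 1.21 for A_73_P468953, so that the low 30 min value of IGFBP2 rests on the deposited values. The same replacement gave -2.82 for IGFBP5 A_73_P034721, -6.50 and 1.45 for IGFBP7 A_73_P247611 and A_73_P049131, and -5.38 and 3.55 for IGFBP3 A_73_120953 and A_73_P405056, so that probes of 1 gene then disagreed.

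IGFBP6, which prefers IGF2 over IGF1, was lower at the 3 early time points. Probe A_73_119197 had a level of 8.12 in CTR, and of 6.04, 5.68, 6.30 and 7.35 on slide 2 (30 min, then 2, 4 and 16 h). On the 8, 12 and 24 h arrays its spot was saturated, at 7.74, 7.25 and 7.58, so that these 3 levels are lower limits and their distance from CTR is not known. It was 5.41-fold lower than CTR at 2 h (-2.44 ± 0.31), 4.22-fold lower at 30 min (-2.08 ± 0.30) and 3.51-fold lower at 4 h (-1.81 ± 0.32). The difference at 16 h was -0.76 ± 0.45. The order of its later levels is not known because of the saturated spots. The 30 min change turned to 0.76 with the scanner intensities, and the 4 h change was -0.72 with median scaling and -1.25 with quantile normalization, under 3-fold in both.

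IGFBP7 was measured by 2 probes that share 48 bases, with 1 substitution between them (C12T, counted from the 5′ end of the shared stretch of A_73_P049131, with the base of A_73_P247611 second), so that they are not independent. Probe A_73_P247611 had levels of 6.35 in CTR and 5.88, 5.85 and 5.87 later on slide 1, and of 3.87, 3.72, 4.82 and 5.49 on slide 2. It was 6.18-fold lower than CTR at 2 h (-2.63 ± 0.31), 5.56-fold lower at 30 min (-2.48 ± 0.30) and 2.89-fold lower at 4 h (-1.53 ± 0.32). All 4 slide 2 arrays were below all slide 1 arrays, and 16 h was nearest to them.

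The other IGFBP7 probe was also lowest at 30 min and 2 h, but stood above CTR late. A_73_P049131 had levels of 6.04 in CTR and 6.73, 6.48 and 6.37 later on slide 1, and of 4.62, 4.36, 5.17 and 5.77 on slide 2. It was 3.20-fold lower than CTR at 2 h and 2.67-fold lower at 30 min, and 1.61-fold higher at 8 h. Bright probes within 10 spots of it deviated by -0.51 on the CTR array and 0.48 at 8 h. With these local deviations subtracted, its changes on the 8, 12 and 24 h arrays were -0.29, -0.26 and -0.23, against -0.15, -0.15 and -0.24 for A_73_P247611, and the higher late values were no longer seen.

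IGFBP3, the main carrier of IGFs in serum, was higher on every slide 2 array than on any slide 1 array, for each of its 3 probes. Probe A_73_120953 had levels of 5.23 in CTR and 4.94, 4.39 and 5.16 on the 8, 12 and 24 h arrays, against 6.03, 6.83, 7.31 and 6.83 on slide 2 (30 min, then 2, 4 and 16 h). It was 4.22-fold higher than CTR at 4 h (2.08 ± 0.32) and 3.03-fold higher at both 2 h and 16 h, just past the 3-fold line. The array annotation puts this probe on chromosome 10 (minus strand, 36595890 to 36595937) rather than on chromosome 4 with A_73_P088786, and it could therefore read another transcript. Its levels nevertheless ran parallel to those of the 2 other probes, with r = 0.98 and 0.99.

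The other IGFBP3 probes gave smaller changes. A_73_P405056 had levels of 3.39 in CTR and 2.71, 2.51 and 3.39 later on slide 1, and of 4.10, 4.65, 5.20 and 4.90 on slide 2. A_73_P088786 (chromosome 4, plus strand, 78899339 to 78899398) had levels of 1.47, 0.84, 0.54 and 1.54 on slide 1 and 1.87, 2.75, 3.30 and 2.60 on slide 2, in the same order. At 4 h they were 3.51-fold and 3.57-fold higher than CTR, at 2 h 2.40-fold and 2.43-fold higher, and at 16 h 2.84-fold and 2.20-fold higher. On slide 1 all 3 probes were lowest at 12 h, by 0.84 to 0.92 below CTR, and within 0.08 of CTR at 24 h. The level at 12 h and that at 8 h, next above it in the order, did not differ by more than 2 errors for any of the 3.

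IGFBP4, an inhibitory carrier that the protease PAPPA cleaves, was read by 1 of its 2 probes, since A_73_116582 was not well above background on any array. A_73_P394806 had levels of 1.74 in CTR and 1.05, 1.15 and 0.64 later on slide 1, against 3.17, 2.72, 3.59 and 3.19 on slide 2. The slides again did not overlap, and the step from CTR to 2 h was the only one in its order larger than 2 errors. It was 3.62-fold higher than CTR at 4 h, 2.73-fold at 16 h, 2.69-fold at 30 min and 1.97-fold at 2 h, and 2.15-fold lower at 24 h (-1.10 ± 0.34). PAPPA itself and its inhibitor STC1 were not well above background on any array.

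Counted at 3-fold, 11 of the 12 member probes could be read against CTR. IGFBP5 A_73_P108261 enters most comparisons only through CTR, A_73_P034721 those of 30 min and 2 h, and IGFBP2 A_73_P468953 that of 30 min, which by itself favours a lower call. At 30 min, 5 member probes were lower (IGFBP2, IGFBP5, IGFBP6 and IGFBP7), where 4.61% of 12215 probes on the whole array were, and 0 were higher, with a background of 7.61%. At 2 h, 7 were lower (IGFBP2, IGFBP5, IGFBP6 and IGFBP7) beside 7.76% of all probes, and 1 was higher (IGFBP3) beside 5.32%. At 4 h, 3 were lower (IGFBP5 and IGFBP6) beside 5.37%, and 4 were higher (IGFBP3 and IGFBP4) beside 2.66%. Among probes well above background on both arrays, 3 of 8 members were lower at 30 min (IGFBP2, IGFBP6 and IGFBP7), where 5.00% of all such probes were. At 2 h these were 5 of 9 (the same genes), beside 8.98%, and at 4 h 2 of 10 (IGFBP5 and IGFBP6), beside 5.27%. The 1 probe higher of 11 at 2 h was near its background.

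Later time points gave few such differences. At 16 h, 1 member probe was 3-fold higher (IGFBP3, beside 6.00%) and 0 were 3-fold lower (5.33%). The higher one was A_73_120953, annotated to chromosome 10, and it was under 3-fold with normexp, quantile, median and bright-probe scaling, while IGFBP5 A_73_P034721 was past 3-fold lower with the last 3 of these. On the 8, 12 and 24 h arrays no member was 3-fold higher or lower, and the backgrounds were as small, with 0.552%, 0.170% and 0.0980% of all probes higher and 0.192%, 0.457% and 0.615% lower on these arrays in turn. The median change of the 11 probes was -1.42 at 30 min, -1.97 at 2 h and -0.87 at 4 h, beside -0.13, 0.00 and 0.00 over all probes read. It was -0.61, -0.60 and -0.48 on the 8, 12 and 24 h arrays, beside -0.13, -0.17 and -0.10, and -0.08 at 16 h beside -0.10. The array-wide medians of 0.00 include probes whose limit gave no fold, which count as 0. Over all probes well above background on both arrays, the medians were -0.22 at 30 min, -0.41 at 2 h and -0.18 at 4 h. Scaling by the median shifted every change from CTR by 0.70 at 2 h and 1.09 at 4 h. The direction at 4 h then turned for IGFBP2 A_73_P468953 (0.72). The 4 h changes of IGFBP2 A_73_103681 (0.02) and IGFBP7 A_73_P049131 (0.22) were then smaller than the error of 0.32.

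Between slides, 10 member probes were well above background on all 4 arrays of at least 1 slide. On 4 of them (3 of IGFBP3 and 1 of IGFBP4) all slide 2 arrays were above all slide 1 arrays, an arrangement that 11.1% of 9661 such probes showed. On 3 of them (1 of IGFBP5 and 2 of IGFBP7) all slide 2 arrays were below, beside 15.4% of all such probes. The 3 probes of IGFBP2 and IGFBP6 overlapped between slides, for IGFBP6 by 16 h against a saturated 12 h spot, so that its arrangement is not known from this probe.

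Against 16 h, on the same slide, lower values at 2 h were seen for IGFBP2, IGFBP5, IGFBP6 and IGFBP7 and no member was 3-fold higher, although both statements depend in part on the scaling. Of 10 member probes read, 5 were at least 3-fold lower at 2 h than at 16 h (both IGFBP2 probes and 1 each of IGFBP5, IGFBP6 and IGFBP7), beside 5.63% of all probes, and 0 were higher, beside 4.30%. IGFBP5 A_73_P034721 was at least 10.1-fold lower, IGFBP2 A_73_103681 7.78-fold lower (-2.96 ± 0.45) and IGFBP2 A_73_P468953 3.94-fold lower. IGFBP7 A_73_P247611 was 3.42-fold lower and IGFBP6 A_73_119197 3.19-fold lower. IGFBP5 passed only through 16 h, where its level of 1.10 is less than 3-fold above the highest detection limit of any array, 0.24. Among probes well above background on both arrays 4 of 9 members were lower, beside 5.97%. With median scaling or normexp background correction the count was 2 in place of 5, namely IGFBP2 A_73_103681 (-2.13 and -1.99) and IGFBP5 (-2.52 and -2.37).

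At 30 min, 3 member probes were 3-fold lower than at 16 h, both of IGFBP2 and 1 of IGFBP7, beside 3.94% of all probes, and 0 were higher, beside 7.05%. IGFBP2 A_73_P468953 passed only through 16 h, and with detection on both arrays 2 of 8 members were lower, beside 3.28%. IGFBP5 gave only a limit, at least 1.82-fold lower, and IGFBP6 A_73_119197 was 2.49-fold lower. At 4 h no member differed 3-fold from 16 h (backgrounds of 1.35% higher and 3.56% lower), and IGFBP5 A_73_P034721 was 2.70-fold lower (-1.43 ± 0.46). For IGFBP3 the differences from 16 h ran from -0.80 to 0.70 over the 3 probes and 3 time points, and for IGFBP4 from -0.47 to 0.40. With median scaling, which shifts the 4 h difference by 1.21, 3 probes were 3-fold higher at 4 h than at 16 h (IGFBP3 A_73_120953 by 1.69 and A_73_P088786 by 1.91, and IGFBP4 A_73_P394806 by 1.62). The milk protein genes were at their highest at 16 h and the fibroblast genes were widely detected there. Of 7 leukocyte probes read at 16 h, 4 were 3-fold above CTR, beside 6.00% of all probes. What these genes add to the comparison was not tested.

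**Figure D3:**
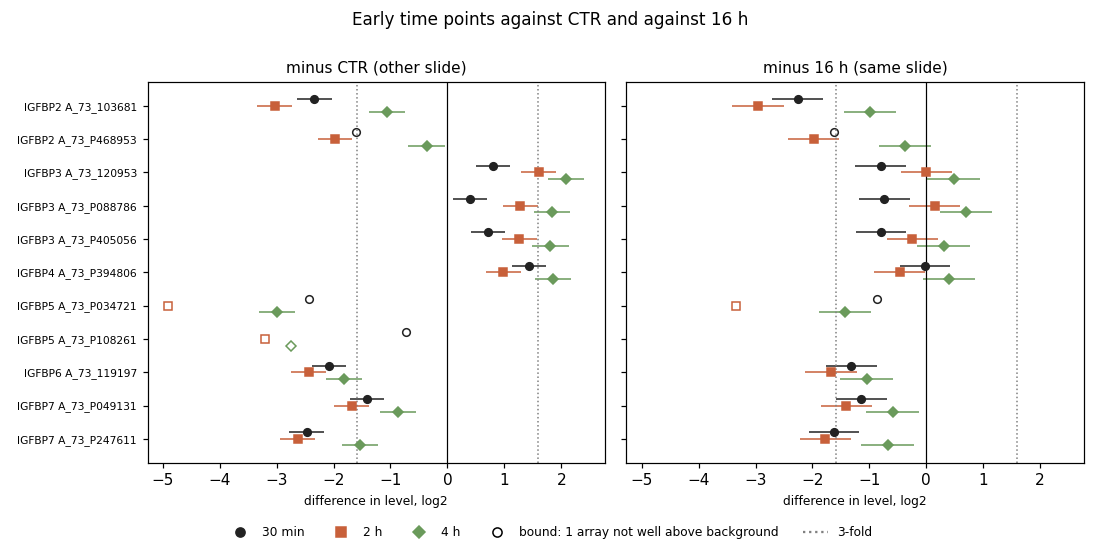
Difference in level (log2) of the member probes read at 30 min, 2 h and 4 h from CTR, on the other slide (left, 11 probes), and from 16 h, on the same slide (right, 10 probes). Bars are the error within arrays, open points are limits from an array on which the probe was not well above background, and dotted lines mark 3-fold. IGFBP2, IGFBP5, IGFBP6 and IGFBP7 lie to the left of 0 in both panels, and IGFBP3 and IGFBP4 are above 0 in the left panel and between -0.80 and 0.70 in the right one.

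The 3 member probes inside the dark patch of the CTR array cannot be set against CTR, where their levels gave changes of up to 5.13, but they can be compared among the other arrays. IGFBP6 A_73_P108266 had levels of 4.40, 4.19, 5.35 and 6.44 on slide 2, and of 6.68, 6.76 and 6.88 on the 8, 12 and 24 h arrays. Against 16 h it was 4.76-fold lower at 2 h and 4.13-fold lower at 30 min, beside 3.19-fold and 2.49-fold for A_73_119197, and unlike that probe it was not saturated. IGFBP3 A_73_P456491 was at 3.79, 4.39, 5.22 and 4.40 on slide 2 and between 2.41 and 3.25 on the same 3 slide 1 arrays. The split between slides was thus also present on the IGFBP3 probes that were left out, with A_73_P088791 at 7.22 to 7.62 on slide 2 and 5.39 to 6.14 on those arrays, and saturated at 2 h and 4 h.

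Similarity of pattern was described by Pearson's r over the 8 arrays between the brightest probe of each gene and all other genes. The points share arrays and slides, and between 1.66% and 3.82% of 9664 to 9666 genes passed an r of 0.9 for each member, so a high r is common. The 3 genes most like IGFBP5 were COL4A1 (r = 0.99), HSPB6 (0.99) and RAB34 (0.99). For IGFBP6 they were JAG2, RPL17 and TAGLN (r of 0.99 to 1.00), for IGFBP7 CAMLG, TAGLN and CALCA (0.97 to 0.98), and for IGFBP2 PLOD1, COL18A1 and UTRN (0.97 to 0.98). For IGFBP3 they were MRPS33, GLRX and NDUFA1 (0.98 to 0.99), and for IGFBP4 CFDP1, SNX3 and CTCF (0.97 to 0.98). Among the members, IGFBP5 correlated with IGFBP6 (0.92), IGFBP7 (0.90) and IGFBP2 (0.82), and IGFBP3 with IGFBP4 (0.89), while r between IGFBP3 and IGFBP5 was -0.79.

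The ligands, receptors and adaptors of the IGF axis were mostly weakly expressed. Of 33 probes for 8 genes on the array, 22 were not well above background on any array, and IGF1, IGFALS (the serum partner of IGFBP3) and the adaptor IRS1 had no probe that was. The ligand IGF2 had the brightest signal at 16 h, where A_73_P036091 was at 3.87 and at least 22.0-fold above CTR, and A_73_104925 was at 3.11. On A_73_104925 IGF2 was at 1.34 in CTR and 1.36, 0.94 and 1.20 later on slide 1, at -1.78 and 0.66 on the 2 and 4 h arrays, and not detected on the 30 min array. This probe thus had a low value at 2 h, as IGFBP2 and IGFBP6 did, with a change of -3.12. A_73_P036091 did not share it, since it was not well above background in CTR and was at -0.17 at 2 h.

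IGF2R, which takes IGF2 up for degradation and also carries lysosomal enzymes, was higher at 30 min and 2 h. Its probe A_73_118894 had levels of 0.93 to 1.05 on slide 1, and of 3.39, 3.15, 1.93 and 2.41 on slide 2. The signalling receptor IGF1R (A_73_118287) was near the detection limit, at -0.91 and -0.84 on the 2 and 4 h arrays and -0.29 and 0.58 on those of 8 and 12 h, and not detected on the other 4. The adaptor GRB10, which dampens receptor signalling, was between 1.07 and 2.42 on all arrays. INSR, the insulin receptor, was detected only at 2 h, at -1.94. In all, 1 of 8 probes read was 3-fold higher (IGF2R, beside 5.32% of all probes) and 1 was 3-fold lower (IGF2, beside 7.76%) at 2 h. At 16 h 3 of 8 were higher, all of IGF2, beside 6.00%. A probe of IGF2 other than A_73_104925 was also 3-fold higher at 4 h (1 of 10 read, beside 2.66%). The same count was found at 8 h (1 of 6, beside 0.552%) and at 24 h (1 of 5, beside 0.0980%).

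Among the proteases that cleave IGF binding proteins, and their inhibitors, the differences of 3-fold from CTR lay on few genes. Of 27 probes for 11 genes, 15 were not well above background on any array, and PAPPA, STC1, MMP2, MMP3 and KLK7 had no probe that was. HTRA1, a secreted protease known to cleave IGFBP5, had changes of -1.54 at 30 min and -1.55 at 2 h on A_73_110869, and of -0.18 and -0.83 on A_73_P303571. Urokinase (PLAU, A_73_118758) was below its CTR level of 7.04 at every time point, with changes from -0.68 at 2 h to -1.73 at 8 h, although median scaling, with its shifts of 0.70 and 1.09, cancels those of 2 h and 4 h. Tissue plasminogen activator (PLAT, A_73_112170) was above its CTR level of 4.15 at every time point, with changes from 0.59 at 30 min to 1.60 at 8 h. MMP1 (A_73_P110031) was detected only at 2 h, at -0.53, and 4 h, at 0.28, and ADAMTS1 (A_73_P373286) only at 2 h, at -0.58. At 8 h 1 of 9 probes read was 3-fold higher (PLAT, beside 0.552% of all probes) and 2 were 3-fold lower (PLAU, beside 0.192%). The median change of the 9 was -0.49. At 12 h 3 of 9 were 3-fold lower, all of PLAU, beside 0.457%. At 4 h 3 of 11 were 3-fold lower, PLAU among them, beside 5.37%.

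Other secreted proteins share the IGF-binding fold without being main IGF carriers, and among them the CCN family differed most. IGFBP1, IGFBPL1, ESM1 and KAZALD1 were not well above background on any array. CTGF (CCN2, A_73_113045) had levels of 4.95 in CTR and 3.90, 3.66 and 3.92 later on slide 1, and of 2.33, 2.46, 3.11 and 3.35 on slide 2, below CTR on every array. CYR61 (CCN1, A_73_108139) was at 3.76 in CTR, 3.29 to 3.55 on the other slide 1 arrays, and 0.90 to 1.72 on slide 2. NOV (CCN3, A_73_P388156) was the reverse, at 0.37 in CTR and at 3.12, 3.21, 4.01 and 3.96 on slide 2, at -0.54 on the 12 h array and not detected on those of 8 and 24 h. CRIM1 (A_73_101243), a membrane protein with the fold, was between 3.46 and 5.43, and WISP2 (A_73_106863) was detected only at 4 h and 16 h. At 2 h 4 of 8 probes read were 3-fold lower (CTGF and CYR61, beside 7.76% of all probes) and 3 were 3-fold higher (NOV, beside 5.32%). At 16 h the counts were also 4 and 3, of 9 probes, for the same 3 genes, beside 5.33% lower and 6.00% higher. Against 16 h no CTGF, CYR61 or NOV probe differed 3-fold at 30 min, 2 h or 4 h.

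**Figure D4:**
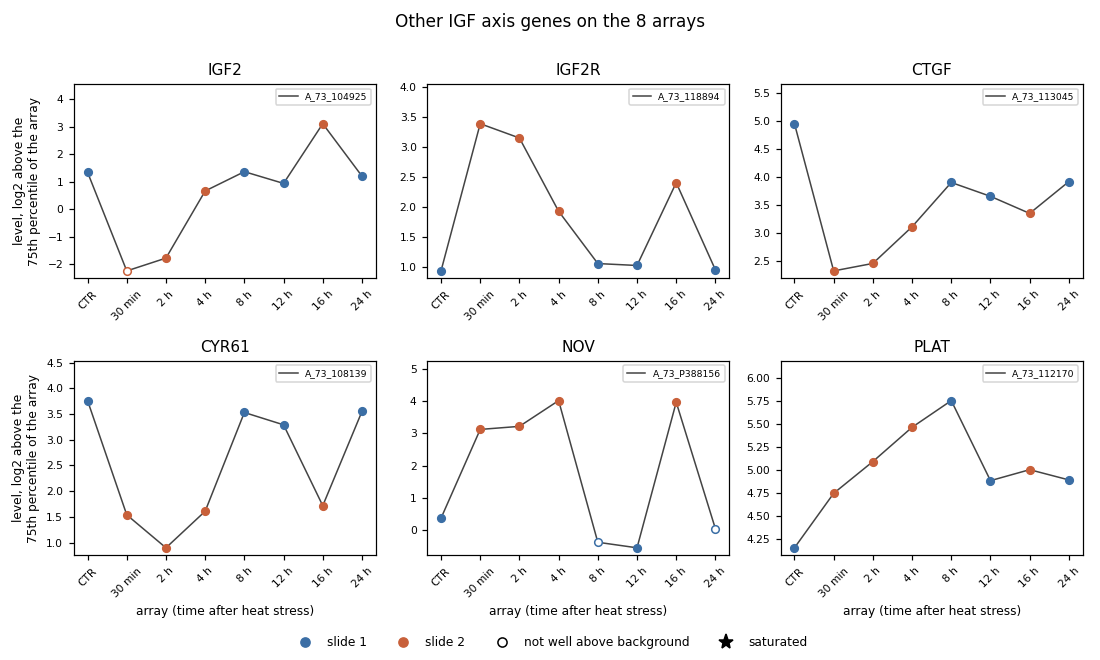
Level (log2 above the 75th percentile of each array) of 6 other IGF axis genes, 1 probe each, on the 8 arrays. Blue points are slide 1, orange points slide 2, and open points were not well above background. IGF2R is highest at 30 min (3.39) and 2 h (3.15), NOV lies at 3.12 to 4.01 on slide 2 and CYR61 at 0.90 to 1.72 there, and IGF2 peaks at 16 h (3.11).

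IGFBP5 was looked at beside other genes of mammary involution, of which the 4 with the highest mean level are named. CLU, a secreted chaperone, was saturated on several arrays on its brightest probe, and on A_73_P271156 had levels of 3.30 in CTR and 3.41 to 3.79 later on slide 1, and of 3.31, 3.18, 4.18 and 5.02 on slide 2. The lysosomal proteases CTSD and CTSB were higher at 30 min and 2 h, where CTSD (A_73_121424) was at 7.03 and 7.12 against 3.82 in CTR, and CTSB (A_73_115425) was at 6.76 and 6.45 against 4.59. TIMP1 (A_73_120461), an inhibitor of matrix metalloproteases, was at 4.92 in CTR and at 5.10, 4.94, 5.96 and 6.46 on slide 2. None of these followed IGFBP5, which was not well above background where CTSD and CTSB were highest. At 30 min 11 of 27 involution probes read were 3-fold higher (beside 7.61% of all probes) and 0 were lower (4.61%). At 2 h 11 of 32 were higher (5.32%) and 1 was lower (7.76%), TGFB3, a signal of early involution, with a change of -2.07. In CTR 22 probes of the list were well above background and at 2 h 32, so that some were read only through the heated array.

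Other lists that moved with the low values of IGFBP2, IGFBP5, IGFBP6 and IGFBP7 are given as measured, and their part in those values was not tested. Leukocyte markers were higher at 30 min and 2 h, with 10 of 13 probes read at least 3-fold above CTR at each, and TYROBP (A_73_118891) at 5.75 and 5.26 and not well above background in CTR. Luminal markers had 4 of 10 probes 3-fold lower at 30 min and 4 of 15 at 2 h, all of KRT8, which was still 3-fold lower on 4 probes at 16 h when IGFBP2 and IGFBP6 were not. MUC1, a luminal mucin, went the other way on A_73_115084, with changes of 1.77 at 30 min, 2.42 at 2 h and 3.92 at 16 h, and GATA3 (A_73_106801) had one of 2.35 at 16 h. Basal markers had 3 of 6 probes 3-fold lower at both 30 min and 2 h, with changes of -2.03 and -2.17 for ACTA2 (A_73_102355), beside -0.40 at 16 h. Other basal genes went other ways at 16 h, when 1 of 9 probes read was 3-fold lower (KRT17) and 3 were higher (CNN1 and MYH11). At 4 h 2 of 9 were higher, of the same 2 genes, and 0 were lower. Fibroblast markers had 0 of 8 probes 3-fold lower at 30 min and 3 of 8 at 2 h (COL1A1, COL3A1 and DCN), and 11 of 26 higher at 16 h. Endothelial markers had 1 of 1 probe higher at 30 min and 1 of 2 at 2 h (VWF), and CDH5, KDR and TEK were at background throughout. All 15 milk protein probes read at 4 h and all 14 at 16 h were higher, and 10 of 14 at 30 min and 9 of 14 at 2 h. In CTR only 1 milk protein, 3 leukocyte, 8 fibroblast and 0 endothelial probes were well above background. Many probes counted as higher therefore entered only through the slide 2 array, and for them no lower call was possible. Over all probes, 7.61%, 5.32%, 2.66% and 6.00% were higher at 30 min, 2 h, 4 h and 16 h. The shares lower were 4.61%, 7.76%, 5.37% and 5.33% at the same time points.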

How the data were processed

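Buffalo MECs were profiled on bovine Agilent arrays in 1 colour (Cy3), with 1 array per condition. Spot intensities deposited by the authors came from a GenePix scanner and Feature Extraction 9.5.3.1. A second deposited table holds log2 values, shifted by array to the 75th percentile and centred by probe. Probe coordinates in the array files are on Btau_3.1.

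Processed intensities were taken to log2 in Python 3.11.15 (pandas 2.3.3), spots of 1 probe were averaged without outlier-marked spots, and the 75th percentile over the 43653 probes outside control spots was subtracted. The signal at that percentile was 65.0 at 30 min and 122 to 426 elsewhere. The number of arrays, not counting error, limits the precision. At 30 min the CTR level plus the change in the deposited log2 values was used, and a probe was detected there at 0.24 or more, the highest limit of the other 7 arrays. Elsewhere detection was the scanner flag for signal well above background. The scanner flag of the 30 min array disagreed with this cut for some member probes. It did not mark IGFBP7 A_73_P247611 and IGFBP3 A_73_120953, which were counted as detected, and did mark IGFBP2 A_73_P468953, which was not. A probe dim on 1 array of a comparison was set to the higher of its own value and the lowest detected value of that array, and a probe dim on both was not read. The error was the median spot SD of bright repeated probes, combined over the 2 arrays, with the CTR value in place of 30 min. The counting step was tested on simulated data.

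Named were every member probe, the genes of the 3 IGF axis lists (1 gene is not reported here), 4 involution genes of highest mean level, 3 genes most like each member and the heat shock check. Members and lists were chosen with earlier results of these data known. Alternatives were normexp (limma 3.58.1, offset 50) on the mean and background intensities that the authors deposited, quantile and median scaling, the percentile over bright probes, the deposited log2 values throughout, the 30 min scanner intensities, a common floor, outlier-marked spots, other filters, a 2-fold threshold and, after seeing the data, subtraction of local trends and the dark patch probes. Gene neighbours came from RefSeq (NDDB_SH_1), where all 6 members matched by symbol.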

Additional observations from a re-analysis of the deposited data

How the results depend on the processing

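No paired analysis was possible because each condition had 1 array. Over all settings, 529 of 698 alternative values of probe changes stayed within the error, and 175 of 178 alternative values of changes past 3-fold kept their direction. The exceptions were the 30 min changes of IGFBP2 A_73_103681 (0.53), IGFBP2 A_73_P468953 (1.21) and IGFBP6 (0.76) with 30 min scanner intensities, where 1 member was higher and 3 were lower. Of 180 alternative counts, 144 were within 1.5 times the reported ones, and the causes of the other changes were not tested. With median scaling, which shifts changes by -0.43 to 1.21, 4 members were higher at 2 h, 0 higher and 1 lower at 16 h, 2 lower at 2 h against 16 h, 3 higher at 4 h against 16 h, and 1 had all slide 2 arrays below slide 1. With normexp, 3 were higher at 2 h, 0 higher at 16 h and 2 lower at 2 h against 16 h. With quantile normalization, and with the percentile over bright probes, 0 were higher and 1 was lower at 16 h. With local trends subtracted, 2 were higher at 2 h, 1 was lower at 8 h and 2 were lower at 16 h. Without a filter on dim probes 1 was lower at 8 h and 1 at 16 h, and with detection on both arrays 3 were lower at 30 min. At 2-fold, 1 was higher at 30 min, 3 at 2 h and 4 at 16 h, and 5 were lower at 4 h, 2 at 16 h and 1 on each of the 8, 12 and 24 h arrays. With the dark patch probes, 2 were higher on each of the 30 min, 8, 12 and 24 h arrays, 3 on the 2 h array and 4 on the 16 h array. With the 30 min scanner intensities 1 member had all slide 2 arrays above slide 1. List medians moved beyond the error in 79 of 283 alternatives, 44 of them without the filter on dim probes. Some of them changed sign. Without that filter the involution median went from 0.15 to -0.49 at 30 min and from 0.33 to -0.38 at 4 h. With median scaling that of the other proteins with an IGFBP domain went from -0.65 to 0.32 at 4 h. Of 54 alternative correlations, 50 were within 0.1, and the other 4 were Spearman's (0.76 to 0.86). The 24 h and 30 min arrays had the highest detection limits, so limits there are the smallest.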
